A study of Mus musculus with 8 samples.

Results

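The genes described here encode the machinery with which neurons release and recycle synaptic vesicles. They are 40 genes chosen by symbol from the 15035 genes of the deposited table, and all 40 were present in it. They were measured by bulk RNA sequencing of auditory nerves microdissected from mouse cochleas at postnatal day 21. 4 libraries came from wild-type mice (libraries 1 to 4). The other 4 (libraries 5 to 8) came from mice whose label reads Mef2c heterozygote, Mef2c being a MADS-box transcription factor, and each library pooled the 2 cochleas of 1 mouse. Strain, sex, the Mef2c allele and the cells in which it is lost were not given in the sources used here, and no treatment is named for either genotype. The design asks which transcripts differ between the genotypes.

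The auditory nerve carries the spiral ganglion neurons, which receive glutamate from inner hair cells and release it from their own terminals in the cochlear nucleus. Release proceeds when a vesicle SNARE protein (VAMP) zips together with syntaxin and SNAP-25 on the plasma membrane, held ready by complexin, primed by Munc13 and RIM at the active zone, and triggered by a calcium-binding synaptotagmin. NSF and its SNAP adaptors then pull the spent SNARE complexes apart, and dynamin, amphiphysin, endophilin and synaptojanin retrieve the membrane. The transcripts of these proteins are made in the neuron's cell body, so they can be measured in the nerve although the terminals lie in the brainstem.

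Mef2c itself was higher in every library labelled heterozygote. Its transcript had 402.2 to 508.7 normalized counts (judged from the values to be reads divided by a size factor per library) in wild type and 583.3 to 735.1 in the heterozygote-labelled libraries, a log2 fold change of 0.53 (limma-trend adjusted p = 0.186). With the allele not given, the transcript level cannot check the label, and every direction given here is between libraries as labelled. Depth could only be estimated, at about 13400000 to 21500000 reads per library, from a step of which 88.1% to 91.7% of low values were whole multiples. By that estimate 3 reads stood for about 2.37 to 3.89 normalized counts. Xist, expressed from the inactive X chromosome, was low in wild-type library 1 and library 5 (12 and 7.6 normalized counts) against 5175 to 8615 in the others, and no label gives sex. Wild-type libraries 1 and 3 stood apart in the genes described here. Library 1 was the lowest of all 8 libraries in 24 of the 40 genes, and library 3 was the highest in 17. The neuron markers moved the same way: their median deviation from the gene mean was -0.13 on the log2 scale in library 1 and 0.19 in library 3, against -0.30 and 0.30 for the 40 genes. Single markers went both ways in library 1. Pvalb, Uchl1, Prph and Ntrk3 had their highest value of the 8 libraries there, and Nefh, Ina, Elavl4 and Map2 among others their lowest. In bulk tissue, fewer neurons and less RNA per neuron cannot be told apart, and the part of transcript length in these deviations was not tested. Counts over the 40 genes without wild-type library 1 or library 3 are given below, with values of single genes in some cases only.

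Promoter sequences were taken from RefSeq (GRCm38.p6, the same assembly as the mm10 build named in the submitters' processing notes), where 32 of the 40 genes had an entry. They are shown for 4 genes. Sv2c and Stx1a are the 2 genes in which the genotypes did not overlap, Bsn had the largest fold change of the active zone genes, and Syn1 is the classical neuron-specific promoter of the family. Each is the 250 bases before the annotated start, on the strand of the gene, at chr13:96132578-96132827 (minus strand) for Sv2c, chr5:135023232-135023481 (plus) for Stx1a, chr9:108190384-108190633 (minus) for Bsn and chrX:20920919-20921168 (minus) for Syn1. Capitals mark matches, on either strand, to a GC box, a CRE, the left part of an RE1 element, a TATA box or a MEF2 element.
Sv2c: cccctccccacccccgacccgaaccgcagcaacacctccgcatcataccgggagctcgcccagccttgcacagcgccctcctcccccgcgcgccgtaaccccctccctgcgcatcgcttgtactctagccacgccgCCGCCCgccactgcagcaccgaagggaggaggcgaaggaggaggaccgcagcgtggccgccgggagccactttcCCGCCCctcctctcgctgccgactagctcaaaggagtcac
Stx1a: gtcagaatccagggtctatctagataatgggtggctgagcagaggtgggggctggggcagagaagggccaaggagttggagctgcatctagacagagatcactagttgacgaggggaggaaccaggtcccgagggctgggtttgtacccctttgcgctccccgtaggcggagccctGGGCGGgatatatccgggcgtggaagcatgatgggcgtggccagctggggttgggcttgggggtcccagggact
Bsn: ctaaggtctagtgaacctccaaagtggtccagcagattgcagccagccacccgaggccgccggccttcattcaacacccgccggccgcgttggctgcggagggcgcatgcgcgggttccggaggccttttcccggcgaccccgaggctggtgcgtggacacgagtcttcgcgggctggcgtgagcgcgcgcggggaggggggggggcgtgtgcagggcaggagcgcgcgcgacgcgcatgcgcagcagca
Syn1: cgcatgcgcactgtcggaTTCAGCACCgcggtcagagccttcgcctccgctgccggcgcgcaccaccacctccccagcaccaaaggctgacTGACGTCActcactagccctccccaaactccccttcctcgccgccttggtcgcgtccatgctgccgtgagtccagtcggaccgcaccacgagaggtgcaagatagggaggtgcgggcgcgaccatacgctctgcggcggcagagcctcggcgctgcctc
The GC box was searched as GGGCGG, the CRE, bound by CREB, as TGACGTCA, the RE1 part, from the element bound by the neuronal silencer REST, as TTCAGCACC, the TATA box as TATAAA, and the MEF2 element by its consensus. None of these motifs overlapped in the 4 windows. GC boxes were found 114 to 109 and 40 to 35 bases upstream of Sv2c and 74 to 69 bases upstream of Stx1a. Syn1 carried the RE1 part 232 to 224 bases upstream and the CRE 159 to 152 bases upstream. Bsn had no match. Of the 32 genes with a sequence, 23 had a GC box in this window (71.9%), 2 the CRE (6.25%, Syn1 and Sh3gl2), 1 the RE1 part (3.12%), 1 the TATA box (3.12%, Sv2b) and 0 the MEF2 element. Among 11844 genes of the table with a promoter entry, the shares were 62.4%, 2.90%, 0.388%, 7.95% and 1.99%. A match is a description of the letters in this window and not evidence of binding.

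The 40 genes spanned a wide range of levels, which are compared between genes per kilobase of the longest annotated transcript. The most abundant was Cplx1, which encodes the complexin that clamps and speeds fusion, at a mean of 10270 normalized counts per kilobase over the 8 libraries (8330 to 12387). Snap25, the plasma-membrane SNARE, followed at 6360 (5452 to 7961), and its highest library lay below the lowest of Cplx1. Syp, for the vesicle protein synaptophysin, had 5577 (4540 to 6315) per kilobase, which overlapped Snap25. Rab3a, the GTPase that brings vesicles to the active zone, had 3991 (3540 to 4487), and its highest library lay just below the lowest of Syp. Vamp1, the vesicle SNARE of fast brainstem and motor synapses, had 3422 (2394 to 3999.8) per kilobase and overlapped Rab3a. Sncb, Dnm1 and Syt11 came next, at 3306, 3246 and 2964 per kilobase, and did not separate from Vamp1 or from each other. At the other end, Doc2b and Synpr had 6.3 and 8.1 per kilobase and came down to 4.8 and 6.3 normalized counts in single libraries, close to the estimated value of 3 reads.

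**Figure D1:**
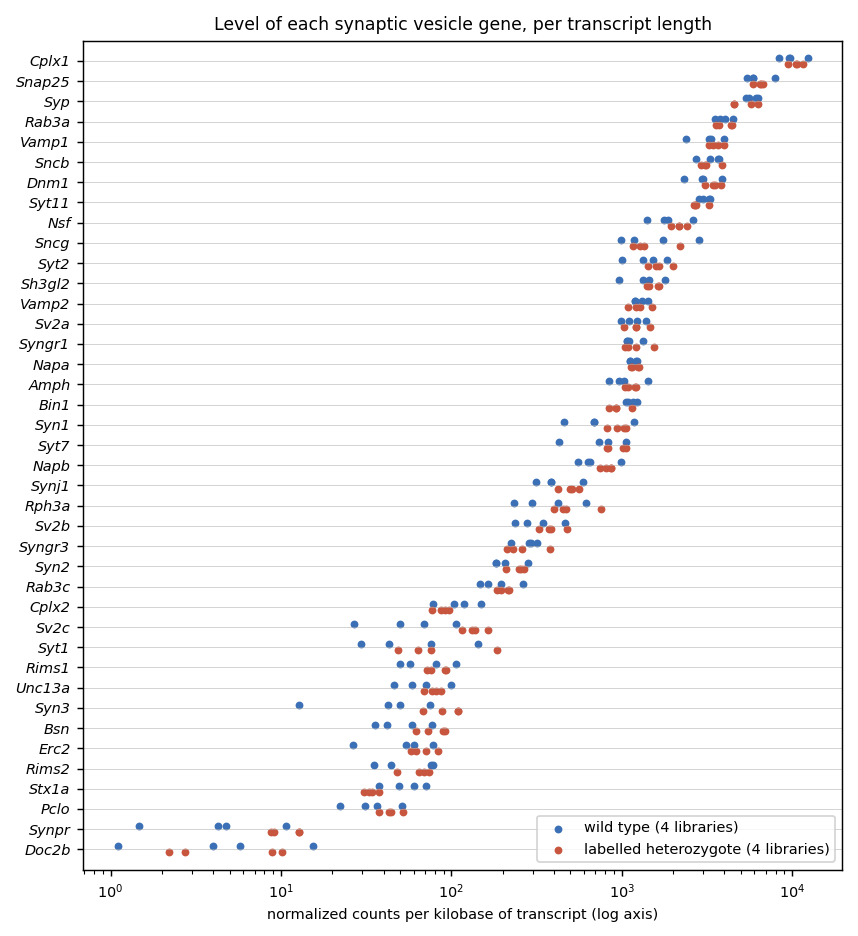
Normalized counts per kilobase of transcript (log axis) for each of the 40 genes in each wild-type library (blue) and each library labelled heterozygote (red), in order of the mean over 8 libraries. The genes run from 6.3 per kilobase for Doc2b to 10270 for Cplx1, and for most genes the colours overlap.

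The values of the 5 most abundant genes are given by library. Cplx1 had 18235, 20876, 27115 and 21175 normalized counts in wild-type libraries 1 to 4 and 25460, 23269, 20636 and 23084 in libraries 5 to 8, without correction for length. Snap25 had 26606, 28623, 38849 and 28873 in wild type and 32922, 31773, 28726 and 31921 in the heterozygote-labelled libraries. In both genes wild-type library 1 was the lowest and library 3 the highest, so the heterozygote-labelled libraries lay inside the range of wild type. Syp had 15898, 15348, 17357 and 17954 normalized counts in wild type and 17920, 16432, 13031 and 12908 in libraries 5 to 8. Libraries 7 and 8 were the lowest in Syp and the genotypes overlapped. Rab3a had 5509, 5855, 6982 and 6258 normalized counts in wild type and 6955, 6780, 5787 and 5554 in libraries 5 to 8. Vamp1 had 13668, 18588, 22835 and 19123 in wild type and 22816, 19681, 18539 and 21022 in libraries 5 to 8. For both, the genotypes overlapped and wild-type library 1 was the lowest.

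Within paralog families the nerve used 1 member far more than another. Of the summed per-kilobase level of Syt1 and Syt2, the 2 fast calcium sensors, Syt2 made up 95.2% ± 2.7 in wild type and 94.7% ± 3.4 in the heterozygote-labelled ones (SD, n = 4 each). Cplx1 made up 98.9% ± 0.37 and 99.2% ± 0.14 of the summed level of Cplx1 and Cplx2 (SD, n = 4 each). Vamp1 exceeded Vamp2, the main vesicle SNARE of the forebrain, in every library, with 71.1% ± 6.1 and 73.8% ± 4.0 (SD, n = 4 each). Sv2a and Syn1 were the leading members of their families, at 75.2% ± 4.5 and 69.9% ± 2.7 of the SV2 level and 73.8% ± 3.0 and 73.9% ± 0.55 of the synapsin level (SD, n = 4 each).

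The shares of the minor paralogs Sv2c and Syn3 lay higher in every heterozygote-labelled library, without passing the adjusted test. Sv2c, a vesicle glycoprotein that in the brain is concentrated in the basal ganglia and brainstem, made up 1.97%, 4.75%, 5.44% and 3.30% of the SV2 level in wild-type libraries 1 to 4 and 6.87%, 6.37%, 8.91% and 9.41% in libraries 5 to 8. All 4 libraries labelled heterozygote lay above all wild-type libraries, a difference of 4.03 percentage points. Syn3, the synapsin expressed early in neuronal development, made up 1.95%, 5.28%, 4.85% and 4.66% of the synapsin level in wild type and 7.86%, 5.37%, 7.90% and 7.74% in libraries 5 to 8. The groups again did not overlap, although library 6 lay only just above wild-type library 2, and the difference was 3.03 points. The exact permutation test (two-sided) gave p = 0.0286 for both shares, which is the lowest value possible with 4 against 4 libraries, and 0.10 after Benjamini-Hochberg adjustment over the 7 shares tested, so neither passed 0.05. The shares of Syt1, Vamp2, Cplx2, Sv2b and Syn2 overlapped between genotypes, with adjusted exact permutation p from 0.40 to 0.857. Shares within a library do not depend on the scaling of libraries, but these families were chosen after the values were seen.

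**Figure D2:**
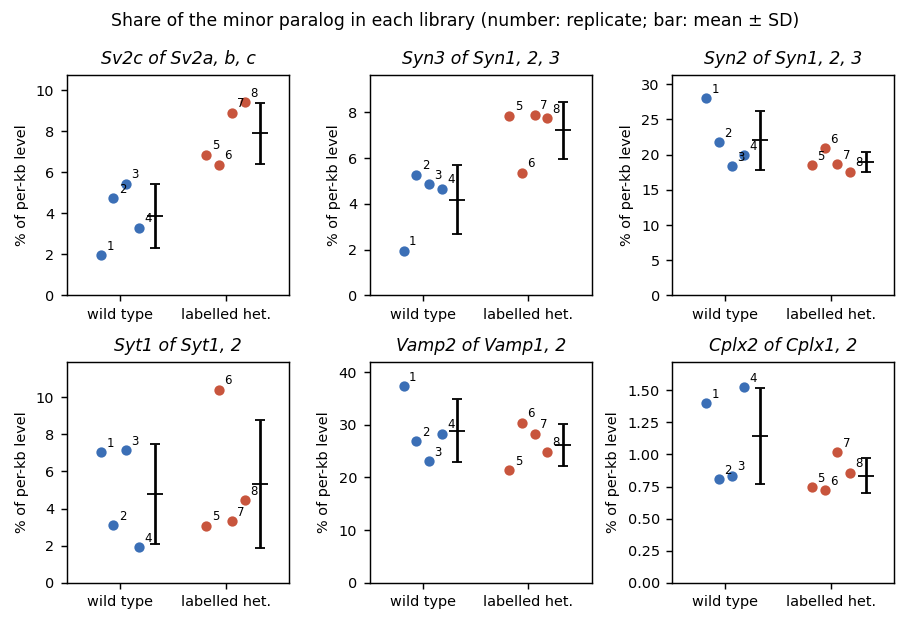
Percent of the summed per-kilobase level of a family taken by a minor paralog, for each library (points, numbered by replicate), with mean and SD (n = 4) per genotype. Sv2c and Syn3 lie higher in every library labelled heterozygote, at 6.37% to 9.41% and 5.37% to 7.90%, and the other 4 shares drawn overlap between genotypes.

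The genotypes were compared gene by gene with limma-trend on log2(normalized counts + 1), adjusted over all 14870 genes tested. All 40 genes passed the filter on low values. None had an adjusted p under 0.05 with limma-trend, where 0.0807% of all genes did. At an unadjusted p under 0.05 there were 6 of 40 (15%), 4 above wild type and 2 below it, against 14.1% of all genes tested (6.72% higher and 7.34% lower). The members' share was thus close to that of all genes. The 4 higher genes were Sv2c, Syn3, Synpr and Bsn, and the 2 lower genes were Stx1a and Bin1. The genotypes did not overlap in 2 of 40 genes, higher in Sv2c and lower in Stx1a, against 7.26% of all genes (3.40% higher and 3.86% lower). 31 of 40 fold changes were above 0, with a median of 0.19 on the log2 scale, against 52.3% and a median of 0.02 for all genes. In the authors' deposited table, 0 of the 40 genes had an FDR under 0.05, where 1.61% of 15024 genes did, and 5 had a p under 0.05, where 15.3% did. The smallest FDR among the 40 in the authors' deposited table was 0.110, for Syn3, and its log2 ratio had the same sign as the fold change computed here for 39 of them, Doc2b being the exception.

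**Figure D3:**
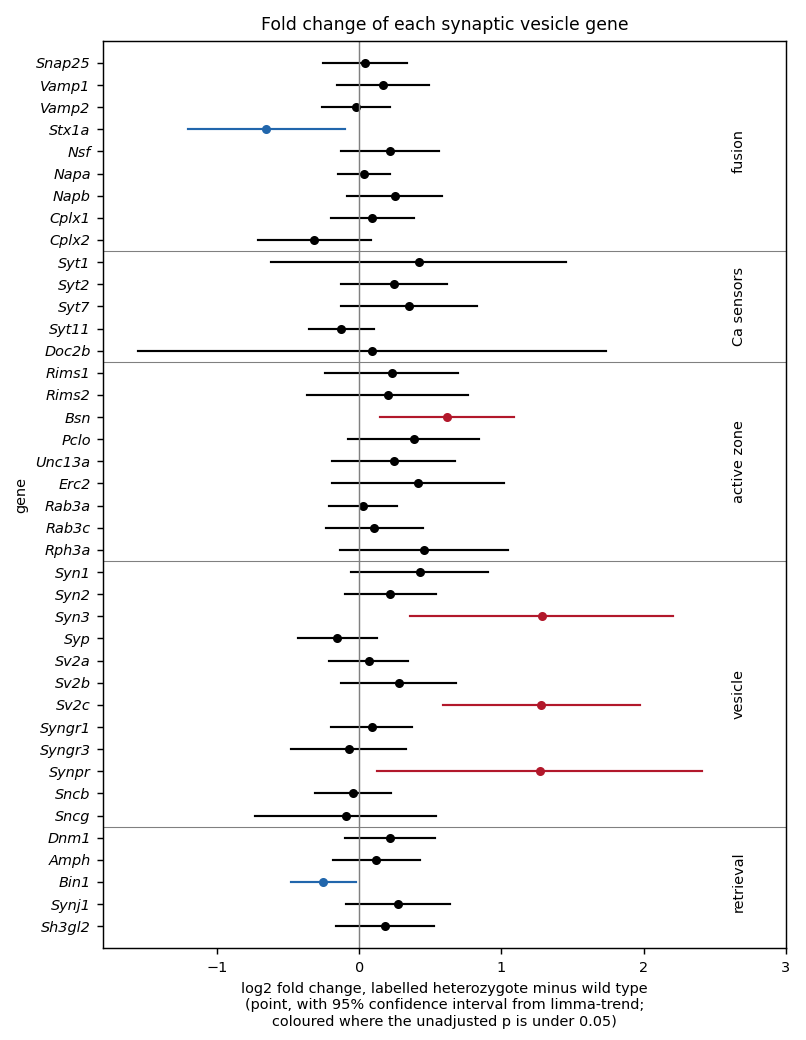
Log2 fold change of each gene, libraries labelled heterozygote minus wild type, with its 95% confidence interval from limma-trend (n = 4 each). The genes are grouped by role, and the 6 intervals drawn in colour, for Sv2c, Syn3, Synpr, Bsn, Stx1a and Bin1, do not cross 0 at an unadjusted p under 0.05.

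These counts depended on single wild-type libraries. Without wild-type library 3, 23 of the 40 genes had an unadjusted limma-trend p under 0.05 (57.5%, 21 higher and 2 lower), where 23.0% of all genes did, and the median was 0.33. The genotypes then did not overlap in 13 of 40 genes (32.5%), where 20.9% of all genes did not. Without wild-type library 1 the count was 4 of 40, where 11.9% of all genes passed, and the median was 0.07. Without wild-type library 1 and library 5, the 2 libraries low in Xist, the median was 0.02, and the genotypes did not overlap in 5 of 40 genes (12.5%), where 18.4% of all genes did not. In that comparison 3 of 9 fusion genes and 2 of 5 retrieval genes had a fold change above 0, against 6 and 4 with all libraries. With the trend of each library on transcript length removed, 7 of the 40 passed (17.5%, 3 higher and 4 lower), where 11.1% of all genes did. The median was then 0.10. With the mean level of the neuron markers as a covariate, 18 of the 40 passed (45.0%, 17 higher and 1 lower), where 20.9% of all genes did. The marker list itself had 20 of 20 genes tested, 8 higher and 12 lower, with a median log2 fold change of -0.04. Its summed level was 219964 to 280820 normalized counts in wild type and 228690 to 279182 in the heterozygote-labelled libraries.

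**Figure D4:**
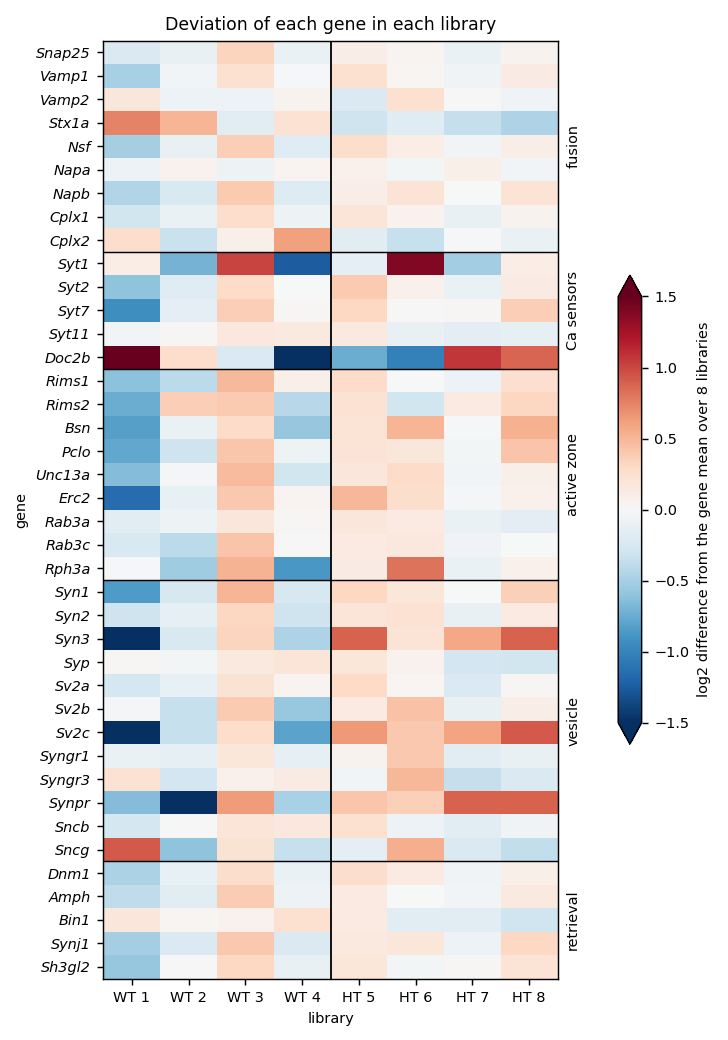
Log2 difference of each gene in each library from its mean over the 8 libraries (red above, blue below, scale capped at 1.5), with genes grouped by role. Wild-type library 1 is the lowest of the 8 libraries in 24 of 40 genes and wild-type library 3 the highest in 17.

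Of the 40 genes, Sv2c had the smallest p. Sv2c (chr13:95954594-96132577, minus strand) had 245.3, 626.1, 968.0 and 456.6 normalized counts in wild-type libraries 1 to 4 and 1247, 1051, 1209 and 1502 in libraries 5 to 8. Every library labelled heterozygote lay above every wild-type library, with means of 574.0 ± 305 and 1252 ± 187 (SD, n = 4 each). The log2 fold change was 1.28 (standard error, SE, 0.32, limma-trend adjusted p = 0.211, before adjustment 0.00171). It passed 0.05 under 2 of 19 alternatives, with library weights (limma-trend adjusted p 0.0364) and without wild-type library 3 (0.0189), in a range of 0.0189 to 0.587. In those 2 fits 96 and 221 of all 14870 genes passed, against 12 in the main fit. The fold change of Sv2c stayed above 0 in all 19 and was smallest, at 0.93, without the 2 libraries low in Xist.

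Syn3 and Synpr showed the same direction at lower levels. Syn3 (chr10:86055125-86498896, minus strand) had 60.9, 238.8, 355.8 and 203.7 normalized counts in wild type and 523.3, 325.8, 422.0 and 523.1 in libraries 5 to 8. Library 6 lay below wild-type library 3, so the genotypes overlapped. The log2 fold change was 1.28 (SE 0.42, limma-trend adjusted p = 0.266), and it was 0.68 once the 2 libraries low in Xist were left out. Synpr (chr14:13284780-13616340, plus strand), for synaptoporin, a relative of synaptophysin, had 18.2, 6.3, 45.8 and 20.5 normalized counts in wild type and 39.1, 37.5, 54.7 and 54.4 in libraries 5 to 8. Wild-type library 3 again lay within the other group, and the counts behind Synpr were low in every library. Its log2 fold change was 1.27 (SE 0.52, limma-trend adjusted p = 0.322), and it was 0.80 without wild-type library 2 (unadjusted limma-trend p 0.0893). The unadjusted limma-trend p of Synpr was under 0.05 in 14 of the 18 alternatives in which it was tested.

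With all libraries the other vesicle proteins stayed within the spread between libraries. Syn1, for the most abundant synapsin, which tethers vesicles in the reserve pool, had 1492, 2255, 3845 and 2251 normalized counts in wild type and 3349.9, 3056, 2678 and 3448 in libraries 5 to 8. Its log2 fold change was 0.42 with a 95% interval of -0.06 to 0.90. Syn2, Sv2b, Sv2a and Syngr1 had log2 fold changes of 0.22, 0.28, 0.07 and 0.09, and Syngr3, Sncb, Sncg and Syp had -0.07, -0.04, -0.10 and -0.15, with limma-trend adjusted p from 0.502 to 0.898. Sncg, for gamma-synuclein, was the most uneven of these within wild type, with 2429 normalized counts in library 1 against 843.0 to 1484 in the other 3. The 12 vesicle protein genes had 8 fold changes above 0 and 4 below, with a median of 0.15.

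**Figure D5:**
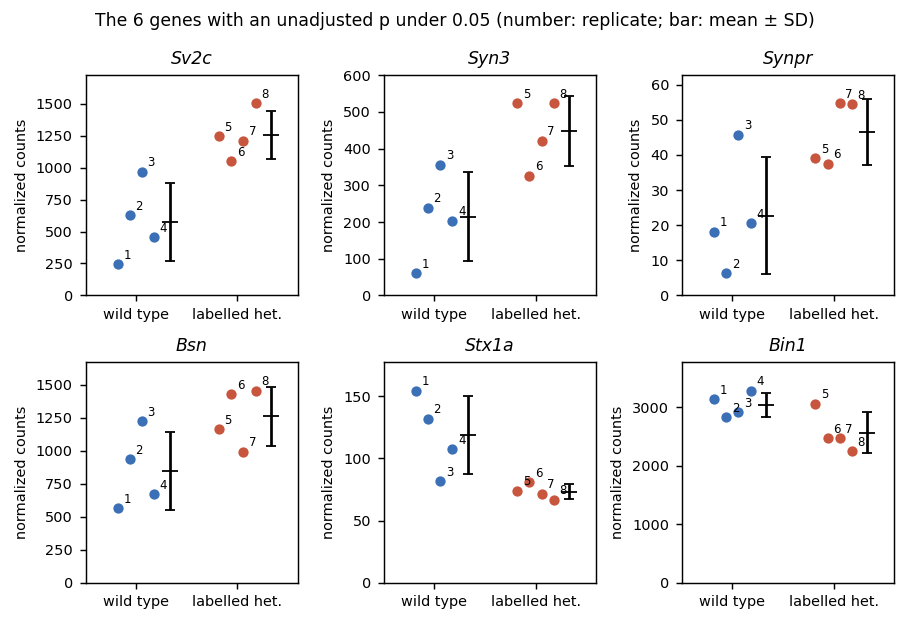
Normalized counts in each library (points, numbered by replicate) of the 6 genes with an unadjusted limma-trend p under 0.05, with mean and SD (n = 4) per genotype. Sv2c and Stx1a do not overlap between genotypes, while wild-type library 3 reaches the other group in Syn3, Synpr and Bsn and library 5 lies among wild type in Bin1.

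The fusion machinery held 1 gene in which the genotypes separated, Stx1a, and 8 in which they did not. Stx1a (chr5:135023482-135051100, plus strand) had 154.4, 131.7, 81.6 and 107.5 normalized counts in wild-type libraries 1 to 4 and 73.9, 81.0, 71.6 and 66.6 in libraries 5 to 8. All 4 libraries labelled heterozygote were lower than any wild-type library, but wild-type library 3 and library 6 lay side by side. The log2 fold change was -0.65 (SE 0.25, limma-trend adjusted p = 0.304, before adjustment 0.0241). Its unadjusted limma-trend p was over 0.05 without wild-type library 1 (0.0633), wild-type library 2 (0.0624), library 8 (0.0579) or the 2 libraries low in Xist (0.0855).

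The remaining fusion genes were close between genotypes with all libraries. Napa, for the alpha-SNAP adaptor, had the smallest standard error of the 40 genes, 0.08, with 2811 to 3111 normalized counts in wild type and 2860 to 3166 in the heterozygote-labelled libraries. Its log2 fold change of 0.03 had a 95% interval of -0.15 to 0.21. Vamp2, Snap25, Cplx1 and Vamp1 had log2 fold changes of -0.02, 0.04, 0.09 and 0.16, with 95% intervals lying between -0.26 and 0.49. Nsf, the ATPase, and Napb, the neuronal SNAP adaptor, had 0.21 and 0.25. Cplx2, the minor complexin, had 582.7, 383.2, 513.3 and 738.0 normalized counts in wild type and 429.1, 381.6, 477.8 and 450.1 in libraries 5 to 8. Its groups overlapped at the low wild-type library 2, and its log2 fold change was -0.32 (SE 0.18, limma-trend adjusted p = 0.437).

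None of the calcium sensors had an unadjusted p under 0.05. Syt2, the sensor of fast synapses, had 6894, 9204, 12764 and 10437 normalized counts in wild type and 13759, 10985, 9753 and 11329 in libraries 5 to 8. Its log2 fold change was 0.25 with a 95% interval of -0.13 to 0.62, and it was -0.0048 once the 2 libraries low in Xist were left out. Syt7, a slow high-affinity sensor, and Syt11, which does not bind calcium, had log2 fold changes of 0.35 and -0.13. Without the 2 libraries low in Xist that of Syt7 was 0.05, and that of Syt11 was -0.24 with an unadjusted limma-trend p of 0.0316 (adjusted 0.326). Without wild-type library 3, Syt2 and Syt7 had 0.38 and 0.53, with unadjusted limma-trend p of 0.0271 and 0.0200. The median log2 fold change of the 5 sensors was 0.25, and 0.07 with the trend of each library on transcript length removed. Syt1 had 366.0, 207.4, 688.4 and 142.5 normalized counts in wild type and 306.3, 893.1, 235.6 and 368.5 in libraries 5 to 8. Library 6 and wild-type library 3 were high in Syt1 and the interval of its log2 fold change, -0.62 to 1.45, was wide. Rph3a, for the Rab3 effector rabphilin, shared its highest and lowest libraries with Syt1, at 3139 normalized counts in library 6 and 972.3 in wild-type library 4. Sv2b also had its extremes there, with 2629 and 1307. Doc2b, a calcium sensor of spontaneous release, had 4.8 to 67.5 normalized counts in wild type and 9.6 to 44.3 in the heterozygote-labelled libraries, too few for a useful interval (-1.56 to 1.73).

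All 9 genes of the active zone, its priming factors and the Rab3 pathway had a fold change above 0, with a median of 0.24, and 1 had an unadjusted p under 0.05. Without the 2 libraries low in Xist, 6 of the 9 were above 0 and the median was 0.02: Rims2, Rab3a and Erc2 had -0.06, -0.08 and -0.0015, and Rims1 had 0.0033. With the trend of each library on transcript length removed 7 were above 0, and Unc13a and Rab3c had -0.02 and -0.11. The gene under the unadjusted threshold was Bsn (chr9:108096022-108190384, minus strand), for the giant scaffold bassoon, with 565.8, 936.0, 1226 and 670.4 normalized counts in wild type and 1163, 1428, 993.3 and 1455 in libraries 5 to 8. Wild-type library 3 lay above libraries 5 and 7, so the groups overlapped. The log2 fold change was 0.62 (SE 0.22, limma-trend adjusted p = 0.278, before adjustment 0.0151). Pclo, for the related scaffold piccolo, had 449.0, 622.2, 1031 and 730.7 normalized counts in wild type and 892.9, 870.4, 751.1 and 1041 in libraries 5 to 8, a log2 fold change of 0.38 (limma-trend adjusted p = 0.418). These are the longest transcripts among the 40 genes, at 15938 and 20084 bases. With the trend of each library on transcript length removed, the fold change of Bsn was 0.28 (unadjusted limma-trend p 0.0723) and that of Pclo 0.02. Erc2 and Rph3a had log2 fold changes of 0.41 and 0.45, and Unc13a, for the priming factor Munc13-1, Rims1 and Rims2 had 0.24, 0.23 and 0.20. Rab3c and Rab3a had 0.11 and 0.03, and with all libraries none of these 7 passed at an unadjusted limma-trend p of 0.05.

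Of the 5 vesicle retrieval genes, Bin1, an amphiphysin that is also made by glia, had an unadjusted p under 0.05. Bin1 had 3143, 2833, 2914 and 3287 normalized counts in wild type and 3066, 2475, 2478 and 2255 in libraries 5 to 8. Libraries 6 to 8 were lower than all wild-type libraries, and library 5 lay among them. The log2 fold change was -0.25 (SE 0.11, limma-trend adjusted p = 0.327, before adjustment 0.0345). Its unadjusted limma-trend p was over 0.05 without wild-type library 1 (0.0531), wild-type library 4 (0.0947), library 6 (0.0755), library 7 (0.0780) or library 8 (0.111), and with neuron markers as a covariate (0.0844). Amph, the neuronal amphiphysin, had a log2 fold change of 0.12, and Dnm1, Synj1 and Sh3gl2, for dynamin, synaptojanin and endophilin, had 0.22, 0.27 and 0.18, with limma-trend adjusted p from 0.464 to 0.706. Of 12 oligodendrocyte markers, 11 had a fold change under 0, 4 of them with a limma-trend adjusted p under 0.05, and their summed level was 23798 to 30926 normalized counts in wild type against 9184 to 17522 in the heterozygote-labelled libraries. Their lowest summed level was in library 5, the library in which Bin1 lay among wild type: Mobp had 2746 normalized counts there and 5376 to 6726 in libraries 6 to 8. Astrocyte markers had 6 of 6 fold changes under 0 and sums of 18747 to 28298 against 9499.9 to 16666. Their part in the values of Bin1, Stx1a or any other gene was not tested.

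Markers of other cells that make these proteins were also read. Hair cells use part of this machinery: of 14 hair cell markers, 9 had a fold change above 0, the median was 0.18, and 5 had an unadjusted limma-trend p under 0.05, 4 higher and 1 lower. Gfi1 (log2 fold change 1.43) and Espn (0.78) did not overlap between genotypes, and Ocm, of outer hair cells, had -1.36. The summed levels were 5383 to 8954 normalized counts in wild type and 4310 to 8660 in the heterozygote-labelled libraries. The inner hair cell calcium sensor Otof had 1254 to 1690 and 1477 to 3018. Myelinating Schwann cell markers had 3 of 10 fold changes above 0 and sums of 121075 to 154445 and 109593 to 151580. Of 7 markers of inhibitory and cholinergic brainstem neurons, the other 6 were absent from the deposited table and only Gad1 was present. Gad1 had 36.3 to 132.4 normalized counts in wild type and 135.9 to 265.3 in the heterozygote-labelled libraries. Neutrophil markers had 6 of 6 fold changes above 0, 5 of them with an unadjusted limma-trend p under 0.05, and 4 (S100a8, S100a9, Ngp and Mmp8) did not overlap between genotypes. S100a8 had the highest log2 fold change of all genes tested, 4.09. The sums were 145.0 to 2567 and 737.1 to 6433, with Ltf alone at 2176 in wild-type library 1. The part of these cells in the results was not tested.

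The partners of the 40 genes, 89 listed and 84 tested, gave similar counts. Of the 84, 0 had a limma-trend adjusted p under 0.05 and 12 (14.3%) an unadjusted p under 0.05, 6 in each direction, and the median log2 fold change was 0.07. Among fusion and priming partners, Vamp3 had a log2 fold change of -0.29 and Rab3d had 0.31, neither past the unadjusted threshold. Of 12 other calcium sensors, 1 passed upwards, Otof (log2 fold change 0.54, also a hair cell marker), and 2 downwards, Syt5 (-1.84) and Doc2g (-1.11). Syt5 was scarce, at 18.1 to 84.5 normalized counts in wild type and 4.7 to 14.8 in the heterozygote-labelled libraries. Among active zone partners 2 of 13 passed, Apba1, for the adaptor Mint1 (0.50), and Rims3 (0.41), both higher, and Erc1 had 0.29.

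Of 15 genes for vesicle membrane and filling, 2 passed the unadjusted threshold, both lower: Atp6v1e1, a subunit of the proton pump (log2 fold change -0.30), and Sypl (-0.25). Dnajc5, for the vesicle chaperone CSP-alpha, was next at 0.26. Slc17a7 and Slc17a6, which load vesicles with glutamate, had 5907 to 11576 and 1660 to 2643 normalized counts in wild type and 8770 to 11518 and 1824 to 2791 in the heterozygote-labelled libraries, with log2 fold changes of 0.19 and 0.11. Of 26 retrieval partners, 2 passed in each direction. Sh3gl3, an endophilin, had 202.5, 283.9, 231.9 and 382.9 normalized counts in wild type and 186.8, 92.4, 151.7 and 175.3 in libraries 5 to 8. The genotypes did not overlap in Sh3gl3, and its log2 fold change was -0.86 (limma-trend adjusted p = 0.259). Ap2s1, the small subunit of the clathrin adaptor AP2, had -0.52 and Itsn1, the scaffold intersectin, had 0.38.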

How the data were processed

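Auditory nerves were microdissected at postnatal day 21 with 2 cochleas pooled per mouse, RNA with an integrity number under 7 was excluded, and poly(A) libraries were made with a strand-marking kit from 50 ng, per the labels' protocols. Per the submitters' processing notes, mm10, Partek, STAR and DESeq2 were used, with roles and versions not given in the sources used here. The authors' deposited signal values are gene counts divided by a size factor, as judged from the values (88.1% to 91.7% of values under 300 were whole multiples of a step, within 0.06). That share is too low to recover reads, and count models were not used. The authors' deposited p-value, FDR (also a p-value), ratio and log2 ratio are quoted as theirs; their signed fold change, a score per the file headers, was not used.

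Genes reaching 10 normalized counts in 4 or more libraries were tested as log2(value + 1), so fold changes of low genes are understated, with limma-trend (limma 3.58.1, R 4.3.3) on all 8 libraries without covariates and Benjamini-Hochberg adjustment. The fit was tested on simulated data in which each gene varied independently. Shifts shared by many genes of a library were not covered by it. Nothing says that the mice were from separate litters or batches. Replicate numbers are not shared between genotypes. Transcript length was that of the longest GENCODE M21 transcript (GRCm38), matched for 97.6% of genes. Samples were grouped by title. Genes were named by a fixed rule: all 40 by role, in full those with an unadjusted p under 0.05, no overlap, or among the 3 smallest p in each direction, and the 5 most abundant; per partner list up to 3 with the smallest p. Some partner genes are not reported here. Slc17a7 and Slc17a6 were added for their roles, after their values were seen. The 40 genes and all lists were chosen with earlier results of these data known. Paralog shares, promoter motifs and the single-library and partner-list alternatives for counts were added after seeing the data. Alternatives were pseudocounts of 0.1 and 10, no filter or 50 normalized counts, upper-quartile and quantile scaling, library weights, low Xist (under 100) as a covariate or left out, length trend removed (loess, span 0.5), neuron markers as a covariate, and omission of single libraries. Tables and plots came from pandas 2.3.3, numpy 2.4.6 and matplotlib 3.10.9 under Python 3.11.15.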

Additional observations from a re-analysis of the deposited data

Results flagged for a closer look

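In 80 groups of 4 libraries, 40 genes in each genotype, 2 had 1 library far from the other 3, where chance gives about 4 (1 in 20). Syt11, for a synaptotagmin that does not bind calcium, had a gap of 0.849 of the range among heterozygote-labelled libraries, with library 5 high at 16376 normalized counts against 13270 to 13740. Syngr1, for the vesicle protein synaptogyrin 1, had a gap of 0.904 of the range in wild type, where library 3 was high, at 5603 normalized counts against 4488 to 4595.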

How the results depend on the processing

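Of the 40 genes, 21 kept the sign of their fold change under all 19 alternatives, Sv2c, Syn3, Synpr, Bsn, Stx1a and Bin1 among them; Synpr and Doc2b were not tested with a filter at 50 normalized counts. With library weights, 1 gene (Sv2c) had a limma-trend adjusted p under 0.05, where 96 of all 14870 genes did. Without single libraries 0 to 1 of the 40 did, where 0 to 221 of all genes did. The number of genes at an unadjusted p under 0.05 was 18 with neuron markers as a covariate and 3 to 23 without single libraries, lowest without library 8 (7.5% of the 40, against 7.94% of all genes) and highest without wild-type library 3 (57.5% against 23.0%). Among the 84 partners tested it was 23 with neuron markers as a covariate, where 20.9% of all genes passed. It was 6 without the libraries low in Xist (13.5% of all genes) and 5 to 25 without single libraries (7.94% to 23.0% of all genes). The genotypes did not overlap in 5 of the 40 genes without the libraries low in Xist (12.5%, against 18.4% of all genes) and in 2 to 13 without single libraries (5% to 32.5%, against 8.73% to 20.9% of all genes). The median log2 fold change of the 40 genes was 0.19 in the main fit. Among the alternatives it was lowest at 0.02 (low-Xist libraries left out) and highest at 0.33 (wild-type library 3 left out). These shifts were smaller than the SD between libraries (0.19). That SD cannot show that the median was stable, because loss of the whole median would also fall within it.

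Signs changed in 45 of 758 values, all in genes no more than 0.41 from 0 on the log2 scale. With library weights Vamp2 had 0.031 and Sncg 0.19. With neuron markers as a covariate Doc2b had -0.56 and Sncb 0.086. With the length trend removed, values were -0.057 for Snap25, 0.042 for Vamp2, -0.016 for Unc13a, -0.11 for Rab3c, -0.0054 for Sv2a, 0.011 for Syngr3, 0.11 for Sncb and 0.15 for Sncg. Without the libraries low in Xist they were -0.047 for Snap25, -0.027 for Vamp1, 0.10 for Vamp2, -0.011 for Napa, -0.038 for Cplx1, -0.0048 for Syt2, -0.059 for Rims2, -0.0015 for Erc2, -0.077 for Rab3a, -0.10 for Sv2a, 0.23 for Sncg, -0.013 for Amph and -0.011 for Sh3gl2. Without single libraries they ranged from -0.022 to 0.16 for Snap25, -0.11 to 0.051 for Vamp2, -0.53 to 0.66 for Doc2b, -0.015 to 0.37 for Rims2, -0.026 to 0.089 for Rab3a, -0.011 to 0.27 for Rab3c, -0.023 to 0.15 for Sv2a, -0.034 to 0.16 for Syngr1, -0.25 to 0.033 for Syngr3, -0.14 to 0.012 for Sncb and -0.31 to 0.20 for Sncg. The cause was not tested. Fits that left out 1 library used 3 against 4. No paired analysis was possible because the genotypes share no replicate numbers.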
